A study of Physcomitrium patens with 6 samples.

Results

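A set of 144 genes of the moss Physcomitrium patens rose at least 4-fold within 30 minutes of abscisic acid (ABA) and stood near the same level at 60 minutes. They were chosen by their own read counts, from 32926 gene IDs, of which 18949 had enough reads to be tested. The values used are CPM, a gene's share of all gene-assigned reads of a library on a fixed scale, corrected by TMM factors, which set the libraries level on the bulk of their genes, and averaged over the 2 libraries of a time. A member had 0.5 to below 100 CPM at 0 minutes, at least 5 CPM at 30 minutes, below 300 CPM at 60 minutes, a ratio of 30 to 0 minutes of at least 4 and a ratio of 60 to 30 minutes between 0.77 and 1.3. All 144 passed the filter on low counts.

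Protonema, the filamentous tissue of young moss, was broken up and grown in shaken liquid culture before treatment. There were 3 groups of 2 libraries, labelled as 0, 30 and 60 minutes of ABA and as biological replicates; the labels do not say whether replicates were separate cultures, so the spread between them may be partly technical. The series design gives 10 µM ABA and the treatment protocol 10 mM, and the labels do not settle which was used. Controls were given methanol, the solvent, for a time that the sources used here do not give, so ABA cannot be told apart from time after an addition. No ecotype, strain or genotype is given in the sources used here. Gene counts per library ranged from 12450250 to 17822775. None of the gene IDs matched the RefSeq annotation at hand, so members carry IDs but no names, roles or sequences, and the tissue label could not be checked against marker genes.

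ABA is the hormone through which land plants respond to drought, salt and cold. Soluble receptors of the PYR/PYL/RCAR family bind it and then block protein phosphatases, which frees SnRK-type kinases to phosphorylate transcription factors of the bZIP class. In moss protonema the hormone is known for inducing tolerance of freezing and desiccation. The level of an mRNA is set by both its synthesis and its decay, and a steady level means only that they balance; read counts do not separate them.

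The members had low levels before treatment and moderate ones after it. Their median was 5.81 CPM at 0 minutes, 57.5 CPM at 30 minutes and 64.2 CPM at 60 minutes. Library by library, the median over the members was 5.63 and 5.98 CPM at 0 minutes, 60.5 and 56.7 CPM at 30 minutes, and 64.8 CPM in both 60 minute libraries. In each of the 144, both 30 minute libraries lay above both 0 minute libraries, as they did in 36.4% of all tested genes, but the rule chose on this contrast. The libraries are bulk RNA, so more cells with a transcript and more transcript per cell cannot be told apart. At 0 minutes a member had a median of 118 reads in replicate 1 and 110.5 in replicate 2, with a lowest value of 8, and 4 members had under 20 reads in both libraries.

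**Figure D1:**
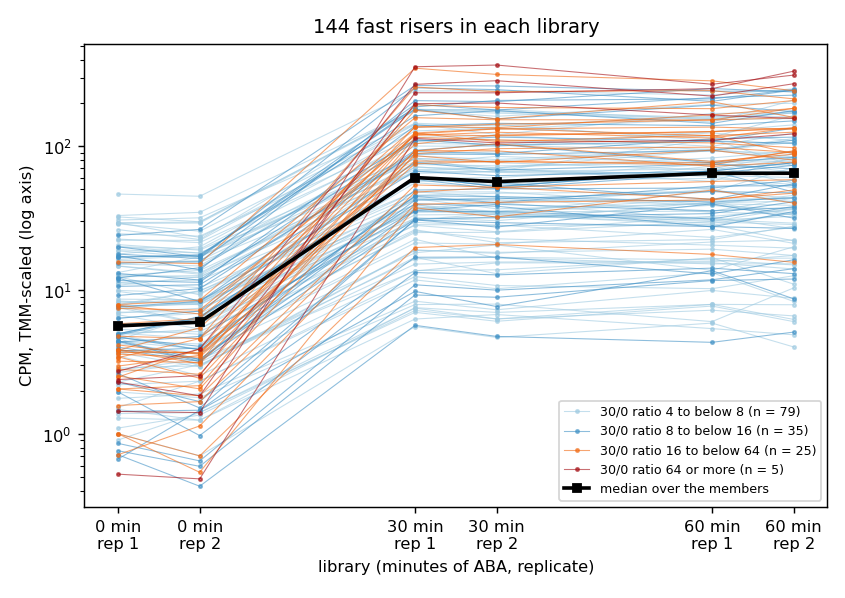
TMM-scaled CPM (log axis) of the 144 members in the 6 libraries, 1 line per member, coloured by the 30/0 ratio, with the median over members in black. The lines rise between 0 and 30 minutes, and the median then moves only between 56.7 and 64.8 CPM over the 4 treated libraries.

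The rise at 30 minutes ranged from 4.0-fold to 254-fold, with a median of 7.02-fold and quartiles of 5.22-fold and 13.2-fold. It was below 8-fold in 79 members and from 8-fold to below 16-fold in 35. A further 25 members rose 16-fold to below 64-fold, and 5 rose 64-fold or more. Members with the larger ratios started lower and ended higher: in the group of 64-fold or more the median was 235 CPM at 30 minutes against 2.07 CPM at 0 minutes, and in the group below 8-fold it was 41.8 CPM at 30 minutes against 8.15 CPM at 0 minutes. The median 60/30 ratio was 1.0, 1.08, 1.05 and 0.893 in the 4 groups from the smallest rise to the largest, and the window of the rule holds each of these between 0.77 and 1.3. The limits on starting and final level likewise bound which rises could occur, so these relations only describe the set.

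All 144 were called higher at 30 than at 0 minutes by edgeR's quasi-likelihood test, against 19.6% of tested genes, and all were called higher at 60 than at 0 minutes, against 28.4%. Since the rule chose on the same libraries, nothing is read from either count. The median fitted log2 fold change at 30 minutes was 2.81 over the members and -0.02 over all tested genes, with a median standard error of 0.15 for a member.

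Pp3c27_4090 was the most abundant member at 30 minutes and had the largest rise. It had 1.43 and 1.41 CPM at 0 minutes, 356 and 366 CPM at 30 minutes, and 269 and 312 CPM at 60 minutes. Each time was separate from the others in this gene, and its 60 minute libraries both lay below its 30 minute ones (ratio 0.804, 95% interval 0.675 to 0.958). Pp3c16_11260 came next in abundance, with 15.7 and 15.3 CPM at 0 minutes, 348 and 315 CPM at 30 minutes and 285 and 243 CPM at 60 minutes. It rose 21.5-fold from a higher start and likewise ended below its 30 minute level in both libraries (ratio 0.795, interval 0.662 to 0.953). Both genes had a mean above 300 CPM at 30 minutes, and the rule kept only genes below 300 CPM at 60 minutes. Their means therefore had to fall for them to be members, and nothing is read from the drop. Pp3c13_22040 had 2.72 and 3.9 CPM at 0 minutes, 269 and 285 CPM at 30 minutes and 223 and 272 CPM at 60 minutes, an 83.7-fold rise after which the libraries of the treated times overlapped.

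Against 0 minutes, the largest change at 60 minutes belonged to Pp3c11_8560, the member with the lowest start. It had 0.525 and 0.487 CPM at 0 minutes, 113 and 105 CPM at 30 minutes and 110 and 122 CPM at 60 minutes. Its rise was 216-fold at 30 minutes and 229-fold at 60 minutes, and its treated libraries overlapped between the times. Next by that ratio, after Pp3c27_4090, was Pp3c3_1750, with 2.29 and 1.84 CPM at 0 minutes, 235 CPM in both 30 minute libraries, and 251 and 332 CPM at 60 minutes. It had gained 114-fold by 30 minutes. Its 2 libraries at 60 minutes disagreed, and its fitted log2 ratio of 60 to 30 minutes, 0.31 with both, became 0.50 when the first of them was left out and 0.087 when the second was.

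At the other end, Pp3c6_28370 had the smallest ratio at both treated times. It had 6.92 and 7.47 CPM at 0 minutes, 29.5 and 28.1 CPM at 30 minutes and 28.4 and 22.0 CPM at 60 minutes, a rise of 4.0-fold and then a level at 3.50 times the start. Pp3c15_7590 had 8.40 and 7.9 CPM at 0 minutes, 39.3 and 32.0 CPM at 30 minutes and 32.1 and 26.7 CPM at 60 minutes, ending at 3.61 times its start. Pp3c2_24600 ended at 3.67 times its start. Both had passed 4-fold at 30 minutes (4.37-fold and 4.73-fold) and then slipped within the window.

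The flattest members showed how much the replicates matter. Pp3c7_20610 had 12.1 and 14.3 CPM at 0 minutes, 111 and 101 CPM at 30 minutes and 108 and 105 CPM at 60 minutes, and its 60/30 ratio of 1.0 had an interval from 0.844 to 1.19. Pp3c9_20090 behaved alike at a lower level, with 5.68 and 6.06 CPM at 0 minutes, 42.7 and 42.0 CPM at 30 minutes and 41.5 and 43.5 CPM at 60 minutes. Pp3c14_20570 had an equally flat mean, 178 ± 43.5 CPM (SD, n = 2) at 60 minutes, against 179 ± 2.56 CPM at 30 minutes, but its 60 minute libraries stood at 147 and 209 CPM, on either side of the 30 minute pair. Its ratio of 0.996 is an average over libraries that disagree, and the interval ran from 0.793 to 1.25.

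Replicates differed least at 30 minutes. The median difference between the 2 libraries of a time was 1.10-fold at 0 minutes, 1.05-fold at 30 minutes and 1.13-fold at 60 minutes, and it was over 1.3-fold in 29, 2 and 15 members at these times. The widest gaps at 60 minutes were in Pp3c16_7800, with 6.03 and 10.3 CPM, and in Pp3c21_16630, with 13.2 and 8.33 CPM. These are low-level members, and their replicates differed in opposite directions.

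The precision of each fitted 60/30 ratio was read from its 95% interval. The rule chose on the same libraries, so the intervals are centred within or close to the window by choice, and they give no support for a plateau. The interval lay wholly between 0.77 and 1.3 for 35 of the 144 members (24.3%), against 8.83% of the 18887 tested genes with an interval. It reached to or past the lower limit for 47 members and the upper limit for 66, and past both for 4 of them. The upper bound was a median of 1.47 times the lower one, and between 1.36 and 2.16 times. By starting level, the interval was inside the window for 1 of 23 members with under 2 CPM at 0 minutes, 18 of 76 with 2 to below 10 CPM and 16 of 45 with 10 CPM or more. These bands also differed at 30 minutes, with medians of 10.4, 42.6 and 110 CPM, so starting and treated level were not separated. Lying inside the window depends on where the ratio is centred as well as on precision. For the remaining 109 members a further change of the size the rule forbids was not resolved by 2 libraries per time.

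**Figure D2:**
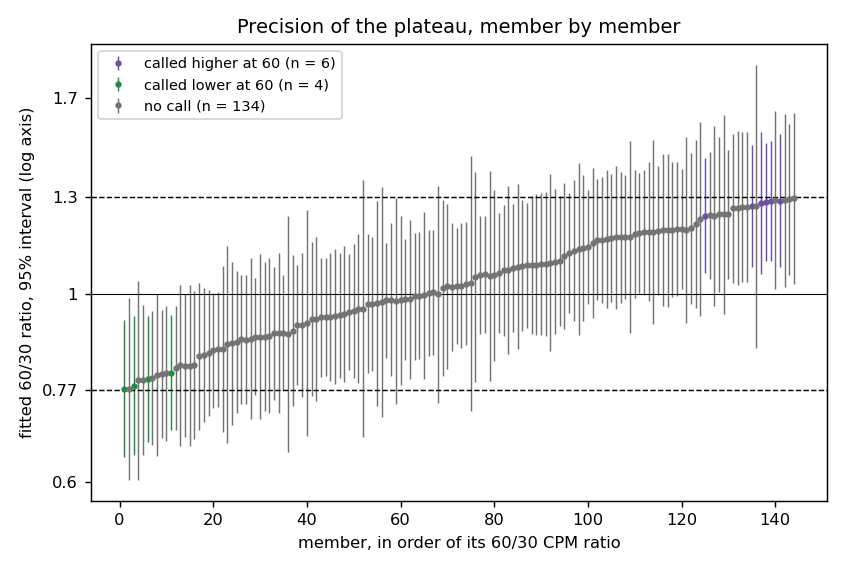
Fitted ratio of 60 to 30 minutes for each member with its 95% interval (log axis), in order of the CPM ratio; dashed lines mark 0.77 and 1.3. Most intervals cross a dashed line, 35 stay between them, and the 10 members with a call sit towards the ends.

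The test of 60 against 30 minutes called 6 members higher and 4 lower, against 17.4% and 18.5% of tested genes. The window caps the ratio, so few calls could be made. The 2 libraries at 60 minutes were both above both at 30 minutes in 50 members and both below in 32, against 33.7% and 34.3% of tested genes, and they overlapped in 62. The interval of the ratio held 1 in 113 members, which the window of the rule favours. The share of all tested genes is not given here. Among those called, Pp3c13_12060 had 28.8 and 25.6 CPM at 0 minutes, 143 and 120 CPM at 30 minutes and 169 and 171 CPM at 60 minutes (ratio 1.29, interval 1.08 to 1.54). Pp3c10_12560, in the opposite direction, had 2.39 and 2.54 CPM at 0 minutes, 197 and 199 CPM at 30 minutes and 164 and 156 CPM at 60 minutes (ratio 0.807, interval 0.690 to 0.944). Both were picked for display after their values were seen. The number called depended on single libraries: leaving out replicate 1 or 2 of the 60 minute pair gave 37 or 26 calls, leaving out replicate 1 or 2 of the 30 minute pair gave 0 or 1, and leaving out replicate 1 or 2 of the 0 minute pair gave 4 or 3. Calls among all tested genes moved as well: in the same order of fits they were 42.7% and 35.1%, 18.7% and 21.4%, and 29.9% in both, against 36.0% with all 6 libraries. DESeq2 called 4 members (2.78%), against 28.4% of tested genes.

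Whether the members held level also depends on what they are measured against. As a share of all gene-assigned reads, the 144 together took 0.151% and 0.141% in the 0 minute libraries, 1.23% and 1.21% in the 30 minute libraries, and 1.02% and 0.970% in the 60 minute libraries, so both 60 minute shares were below both 30 minute ones. With CPM from total counts alone, the median log2 ratio of the members from 30 to 60 minutes was -0.30, and with upper-quartile factors it was -0.071, against 0.031 with TMM. The median of all tested genes, with 0.1 CPM added, was -0.31, -0.090 and 0.0085 under the same scalings. A change of scaling moves the ratios of all genes by about the same amount, and the rule had set the members within its window under TMM. That the medians of the members and of all genes lay close under each scaling follows from this and is no result. Relative to the total of counted reads the members were lower at 60 minutes. With total counts edgeR's test called 56 members (38.9%) lower at 60 than at 30 minutes and 0 higher, against 35.3% lower and 6.75% higher among all tested genes. The share of members called lower was thus near that of all genes under this scaling. In edgeR's test 69 members had an unadjusted p below 0.05. The share of all genes for this count is not given here, so nothing is read from it.

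Who belongs to the set was sensitive to the scaling in the same way. With total counts alone the rule gave 145 genes, of which 80 were members. With upper-quartile factors 106 of 126 were members, and with RLE factors 135 of 141. With 1 library left out the rule gave 133 to 151 genes. The members among them numbered 116 without replicate 1 at 60 minutes, the lowest, and 142 without replicate 2 at 0 minutes, the highest.

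The rule was also applied to 1 library per time, and the ratios of the chosen genes were read in the other, called unused here. The scaling factors came from all 6 libraries together, so the unused libraries were not wholly outside the choice. The replicate 1 libraries gave 160 genes and the replicate 2 libraries 145, with 99 in common. Of the genes chosen on replicate 1, 90.6% also reached 4-fold at 30 minutes in replicate 2, and of those chosen on replicate 2, 92.4% did so in replicate 1, against 4.97% and 4.94% of all tested genes in those libraries. The lowest 30/0 ratios in the unused libraries were 2.56 and 2.72. Nearly all of these genes thus reached 4-fold in the unused libraries as well, and the exceptions lay at 2.56-fold or above. These shares are a description, and no test was made on them. Since the labels do not say whether replicates were separate cultures, the unused libraries may not be independent of those used for the choice.

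The plateau was read in the same way, and no test compared it with the rise. The ratio of 60 to 30 minutes fell within the window in the unused libraries for 72.5% of genes chosen on replicate 1 and 72.4% of those chosen on replicate 2. The same share was 32.9% and 32.5% among all 480 and 455 genes that met the rule's other criteria in the choosing replicate. Those groups include the chosen genes themselves. Among all tested genes, whose starting levels and changes were not restricted, the share was 48.3% and 53.6%. In replicate 2 the genes chosen on replicate 1 lay above the window in 35 cases and below it in 9, with a median of 1.08. In replicate 1 those chosen on replicate 2 lay above it in 19 cases and below it in 21, with a median of 0.980. Across the chosen genes the log2 60/30 ratios of the replicates had a Pearson r of 0.67 (160 genes) and 0.64 (145 genes), given as a description; the genes share libraries and scaling factors. With 1 library per time, no test was made.

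**Figure D3:**
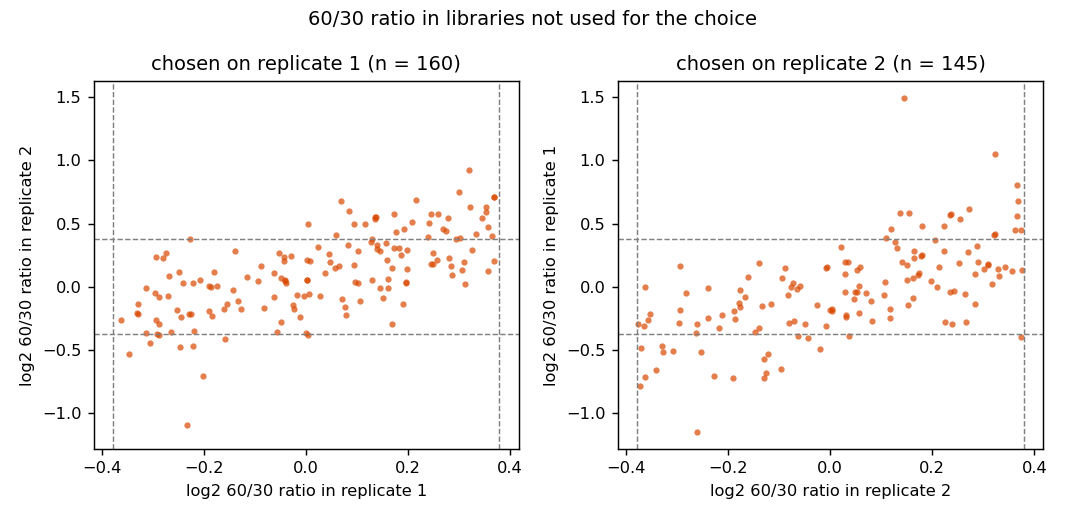
Log2 ratio of 60 to 30 minutes in the replicate used to choose genes (x) and in the other replicate (y), for genes chosen on replicate 1 (left) and replicate 2 (right); dashed lines mark the window of 0.77 to 1.3. All points lie between the vertical lines by the rule, and 72.5% (left) and 72.4% (right) also lie between the horizontal ones.

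The plateau is a band cut from a continuous range. A total of 455 genes met every criterion other than the 60/30 window, and the members were 31.6% of them; 237 continued above a ratio of 1.3 and 74 dropped below 0.77. Genes that rose past 300 CPM by 60 minutes were already left out of the 455, so these counts and the share depend on that limit. Over all tested genes 53.1% had a ratio within the window. No gap in the ratios separated the members from the genes on either side of them.

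**Figure D4:**
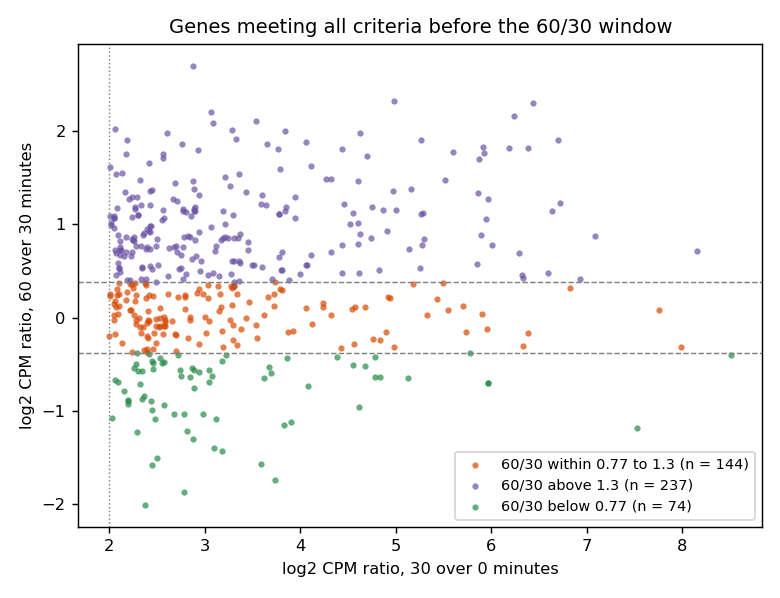
Log2 CPM ratio of 30 to 0 minutes (x) and of 60 to 30 minutes (y) for the 455 genes that met all criteria before the 60/30 window, coloured by their side of it; dashed lines mark 0.77 and 1.3 and the dotted line a 4-fold rise. The 144 members form the middle band and run without a break into the 237 genes above and the 74 below.

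At the limits, Pp3c1_24090 had a 60/30 ratio of 0.772, while Pp3c11_8510, just under 0.77, was left out. Pp3c1_25220 at 1.299 was kept and Pp3c23_10870 at 1.304 was not. Pp3c6_28370 had a 30/0 ratio of 4.0, against 3.97 for the excluded Pp3c14_19810. On level, Pp3c3_13190 entered with 5.13 CPM at 30 minutes and Pp3c22_8523 with 4.61 CPM did not. Pp3c3_1750 entered with 291.5 CPM at 60 minutes, and Pp3c19_13160 with 304 CPM did not. At 0 minutes Pp3c11_8560 was kept at 0.506 CPM and Pp3c3_17840 left out at 0.492 CPM. The highest member at 0 minutes, Pp3c17_16470, had 45.7 CPM. The upper limit of 100 CPM there could exclude no gene on its own, since the other limits already hold a member below 97.4 CPM.

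The IDs carry a prefix and a number, and the tested genes next to a member by number were compared as genes that the rule did not choose. Of 279 such neighbours, 80 (28.7%) were called higher at 30 than at 0 minutes by edgeR's test, against 19.6% of all tested genes. A rise of at least 4-fold with a call was found for 24 of them (8.60%), against 4.84% of tested genes. Such a neighbour stood next to 23 members. The share of all tested genes with such a neighbour is not given here, so nothing is read from that count. Neighbours of the genes that continued above 1.3 were called in 28.5% of 452 cases and neighbours of those that dropped in 24.1% of 141, so the share was not set apart from those of the other early risers; the differences were not tested. Among the genes second from a member but not next to one, 47 of 275 (17.1%) were called higher. The files give no coordinates or strands, so how close these genes lie, and whether their annotated models overlap, is not known here.

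**Figure D5:**
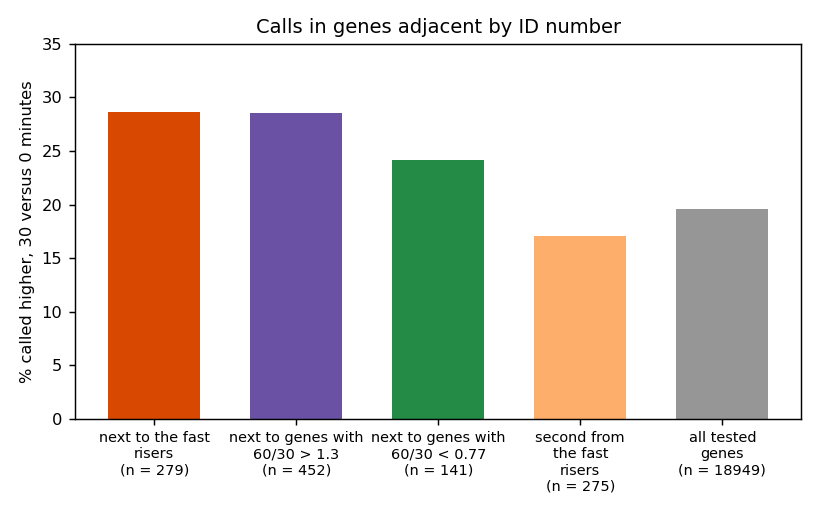
Percentage of genes called higher at 30 than at 0 minutes among tested genes next by ID number to the members, to the genes with a 60/30 ratio above 1.3 and to those below 0.77, among genes second from a member, and among all tested genes. The first 3 bars stand at 28.7%, 28.5% and 24.1% and the last 2 at 17.1% and 19.6%.

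Of the 24 strongly rising neighbours, 17 had a 60/30 ratio above 1.3, 3 below 0.77 and 4 within the window. Neighbours that were members themselves had been left out. With these 7 put back, 11 of 31 were within the window, so nothing about a shared plateau is read from the 24. Pp3c6_1460, next to the member Pp3c6_1370, had 0.716 and 0.541 CPM at 0 minutes, 250 and 251 CPM at 30 minutes and 376 and 492 CPM at 60 minutes. Pp3c3_1770, next to Pp3c3_1750, had 10.9 and 12.6 CPM at 0 minutes, 388 and 385 CPM at 30 minutes and 937 and 1106 CPM at 60 minutes, a 60/30 ratio of 2.64, against 1.24 for the member. Pp3c9_20120, next to Pp3c9_20090, had 26.3 and 25.1 CPM at 60 minutes, against 52.7 and 49.8 CPM at 30 minutes, a ratio of 0.502. These 3 neighbours were chosen after their values were seen.

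Some members may not count as separate genes. The adjacent IDs Pp3c15_1020, Pp3c15_1040 and Pp3c15_1050 had almost the same reads in every library. For Pp3c15_1040 these were 104 and 120 reads at 0 minutes, 1120 and 682 reads at 30 minutes, and 948 and 1067 reads at 60 minutes, and Pp3c15_1050 differed from it by 1 read in each of 2 libraries. Pp3c9_2800 had 608 and 540 reads at 0 minutes, 3246 and 2210 reads at 30 minutes, and 2191 and 2367 reads at 60 minutes. Pp3c9_2809 had 616 and 548 reads, 3295 and 2257 reads, and 2232 and 2412 reads in the same libraries. Counted once where adjacent IDs agree within 10% in all 6 libraries, the members number 141. Such agreement was found for 488 of 18874 adjacent tested pairs (2.59%), and for 3 of the 284 such pairs that hold a member. The files' row for ambiguous reads was 0 in every library. Whether reads were counted for more than 1 ID was not tested, and it touches the neighbour counts above as well. A further adjacent pair, Pp3c1_15010 and Pp3c1_15011, differed by more than 10% in reads but moved alike, 4.86-fold and 4.56-fold at 30 minutes.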

How the data were processed

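The authors deposited 1 table of whole-number read counts per gene for each of the 6 libraries; per the submitters' processing notes cutadapt, TopHat, HTSeq and DESeq2 were used, while versions, genome build, gene models and strandedness of counting are not given in those sources. The 5 summary rows were dropped; reads in no gene were 1.66% to 2.14% of a library. Low genes were removed with filterByExpr of edgeR, at a count minimum of 10 and a total of 15. CPM used all gene counts and TMM factors. Tests were edgeR quasi-likelihood F tests over all 6 libraries (edgeR 4.0.16, R 4.3.3), Benjamini-Hochberg adjusted, called below 0.05. Intervals used fitted weights and moderated dispersions; they and the calls were tested on simulated data. DESeq2 was 1.42.0. Displayed members follow a rule: most abundant, largest and smallest 60/0 ratio, flattest, widest replicate gap at 60 minutes, and nearest each limit. Members, lists and rules were chosen with earlier results of these data known. Planned description lists and tissue markers were not run, since 0 of 32926 IDs matched the 27567 RefSeq genes (assembly ASM5946719v1).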

Additional observations from a re-analysis of the deposited data

Results flagged for a closer look

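The difference between 60 and 30 minutes passed edgeR's quasi-likelihood test (Benjamini-Hochberg adjusted) for 6 members that were higher and 4 that were lower at 60 minutes, although the rule kept each within 0.77 to 1.3. The adjusted p lay between 0.0210 and 0.0474, and for each of the 10 both 60 minute libraries were on the same side of both 30 minute libraries. They were chosen on the same libraries. Of all tested genes 17.4% were called higher and 18.5% lower. The split moved with the method, and so did these shares. It was 9 higher and 1 lower with RLE factors (all genes 19.0% and 17.4%) and 4 and 0 with DESeq2 (15.4% and 13.0%). With the replicate block it was 11 and 9 (19.8% and 19.8%), and with only the 4 libraries compared 0 and 6 (13.5% and 17.5%). Upper-quartile factors gave 0 and 17 (12.8% and 22.9%), and total counts gave 0 and 56 (6.75% and 35.3%).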

How the results depend on the processing

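Calls of the members against 0 minutes numbered 144 at both treated times under each alternative run, which the choice on these libraries fixes and which says nothing of stability. Calls between 60 and 30 minutes, 10 with TMM (6.94% of members, against 36.0% of tested genes), varied. There were 56 with total counts (38.9%, against 42.1%), 17 with upper-quartile factors (11.8%, against 35.7%), 20 with the replicate block (13.9%, against 39.6%), 6 with only the 4 libraries compared (4.17%, against 30.9%) and 4 with DESeq2 (2.78%, against 28.4%). With 1 library left out, where a lone library is assumed to vary like the others, there were 0 to 37 (0 to 25.7%, against 18.7% to 42.7%). The cause was not tested. The block is not given by the labels; deviations of same-numbered libraries correlated at -0.06 (0 and 30 minutes), 0.02 (0 and 60) and 0.26 (30 and 60), and with the block 11 members were higher and 9 lower. A narrower 60/30 window left 78 members and a 30/0 ratio of at least 6 left 83, by construction. The median log2 ratio of the members at 30 minutes was 2.81, with 2.67 for total counts and 2.56 for upper-quartile factors; from 30 to 60 minutes it was 0.031, with -0.30 and -0.071. Taking the next 2 IDs on either side lowered the share of neighbours called higher to 22.9%. Members under 2 CPM at 0 minutes had the widest intervals of the 60/30 ratio (median upper over lower bound 1.66, against 1.49 and 1.42 in the bands from 2 and from 10 CPM); depth itself was not varied. Counting near-identical adjacent IDs once was chosen after seeing the data.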

Other observations

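The members were spread over all 27 prefixes of the Pp3c form, with 1 to 10 members each, and none was among the 79 tested genes of the Pp3s form. Over all tested genes there were 0.760 members per 100, and by prefix the number ranged from 0.173 in Pp3c19 to 1.29 in Pp3c13. How this would vary by chance was not tested.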
